A study of Mus musculus with 31 samples.

Results

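Receptors for serotonin, dopamine, noradrenaline, acetylcholine (muscarinic), histamine and trace amines were followed as 26 genes, out of 15096 named genes on the array. They were chosen by gene symbol alone, as every probe with 1 symbol for a serotonin, dopamine, adrenergic, muscarinic, histamine or trace amine receptor. The symbols used left out the Htr3 channels, Drd2 and Adra2c. This gave 30 of 16874 named probes. By transmitter there were 12 serotonin genes, 4 for dopamine, 1 adrenergic gene, 4 muscarinic genes, 4 for histamine and 1 for trace amines. Whole-brain RNA of 31 BXD/TyJ strains, pooled from 3 replicates of each strain, was labelled with Alexa Fluor 647 and hybridised with pooled C57BL/6J whole-brain RNA in Alexa Fluor 555, 1 array per strain and no dye swap. All animals were males aged 8 weeks. BXD strains are recombinant inbred lines from C57BL/6J and DBA/2J, each carrying 1 parental allele in homozygous form at most loci, so at a given gene part of the strains carry the same allele as the reference. Strains with numbers from 33 to 42 (7 strains) form the later set and those with numbers up to 32 (24 strains) the earlier set.

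All of these receptors pass through the membrane several times and act through G proteins. Those coupled to Gs raise cyclic AMP, those coupled to Gi lower it, and those coupled to Gq activate phospholipase C. In the brain the transmitters come from small clusters of cells, such as the raphe nuclei for serotonin, the midbrain for dopamine, the locus coeruleus for noradrenaline and the tuberomammillary nucleus for histamine, and reach most regions through widespread axons. Several of the receptors also sit on the releasing neurons themselves as autoreceptors, which limit further release.

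Each value is a log ratio, taken as log2 of strain over C57BL/6J, so that 0 means equal signal in both channels. Neither the log base nor the direction is stated in the sources used here; in the opposite direction every sign below would turn. A ratio carries no level, so whether a receptor is abundant in brain, or whether a probe was above background, cannot be read from these values, and the labelled tissue could not be checked by marker levels. In whole tissue, fewer cells of a type and less RNA per cell cannot be told apart. Strain and array cannot be told apart either, since each strain had 1 array, and p-values measure the spread between arrays. With no dye swap, a fixed dye or spot effect cannot be told apart from a difference in RNA. The arrays fell into 3 groups on the first 2 principal components of all features (28.7% and 11.9% of the variance). The first set apart BXD38, BXD36, BXD28, BXD23, BXD20, BXD8 and BXD6. The second set apart BXD42, BXD40, BXD39, BXD34, BXD33, BXD27, BXD22 and BXD15, and 16 earlier strains formed the core. These groups come from the data, and the labels name no batch. Named probes at the eighth place in runs of 8 spots averaged −0.51, against −0.01 to 0.08 at the other 7 places. Chrm4, Drd4, Drd5, Htr1a and Htr5a have their probe there, and their values are also given after subtracting the median of named probes at the same place on each array (place-centred).

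Over the 31 strains, 15 receptor genes had a mean log ratio above 0 and 6 below 0 that passed limma's moderated test against 0 (adjusted p under 0.05, Benjamini-Hochberg over 21262 features). The other 5, Htr2a, Drd1, Drd3, Chrm2 and Chrm4, did not pass. The same test called 76.1% of all features, 42.1% above 0 and 33.9% below, so a call as such was the common outcome on these arrays. The median of the 26 means was 0.13, against 0.04 over all features. All 4 histamine receptor genes and Taar1 lay above 0, the single adrenergic gene lay below 0, and serotonin and muscarinic genes were found on both sides. Chrm3 had the lowest mean, −0.77 ± 0.53 (SD, n = 31), and Hrh1 the highest, 0.49 ± 0.34. With place-centred values 14 genes passed above 0 and 8 below, against 38.6% and 35.0% of all features. When the mean had to exceed a change of 1.2-fold in either direction, 5 genes passed, namely Htr1a, Chrm3 and Adra1b below 0 and Hrh1 and Htr1d above, against 27.9% of features. The signs on single arrays were less uniform than the means: Htr1a and Adra1b had 1 sign on all 31 arrays, as did 9.96% of named genes. The probe of Htr1a is at the eighth place, and signs were not counted on place-centred values.

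**Figure D1:**
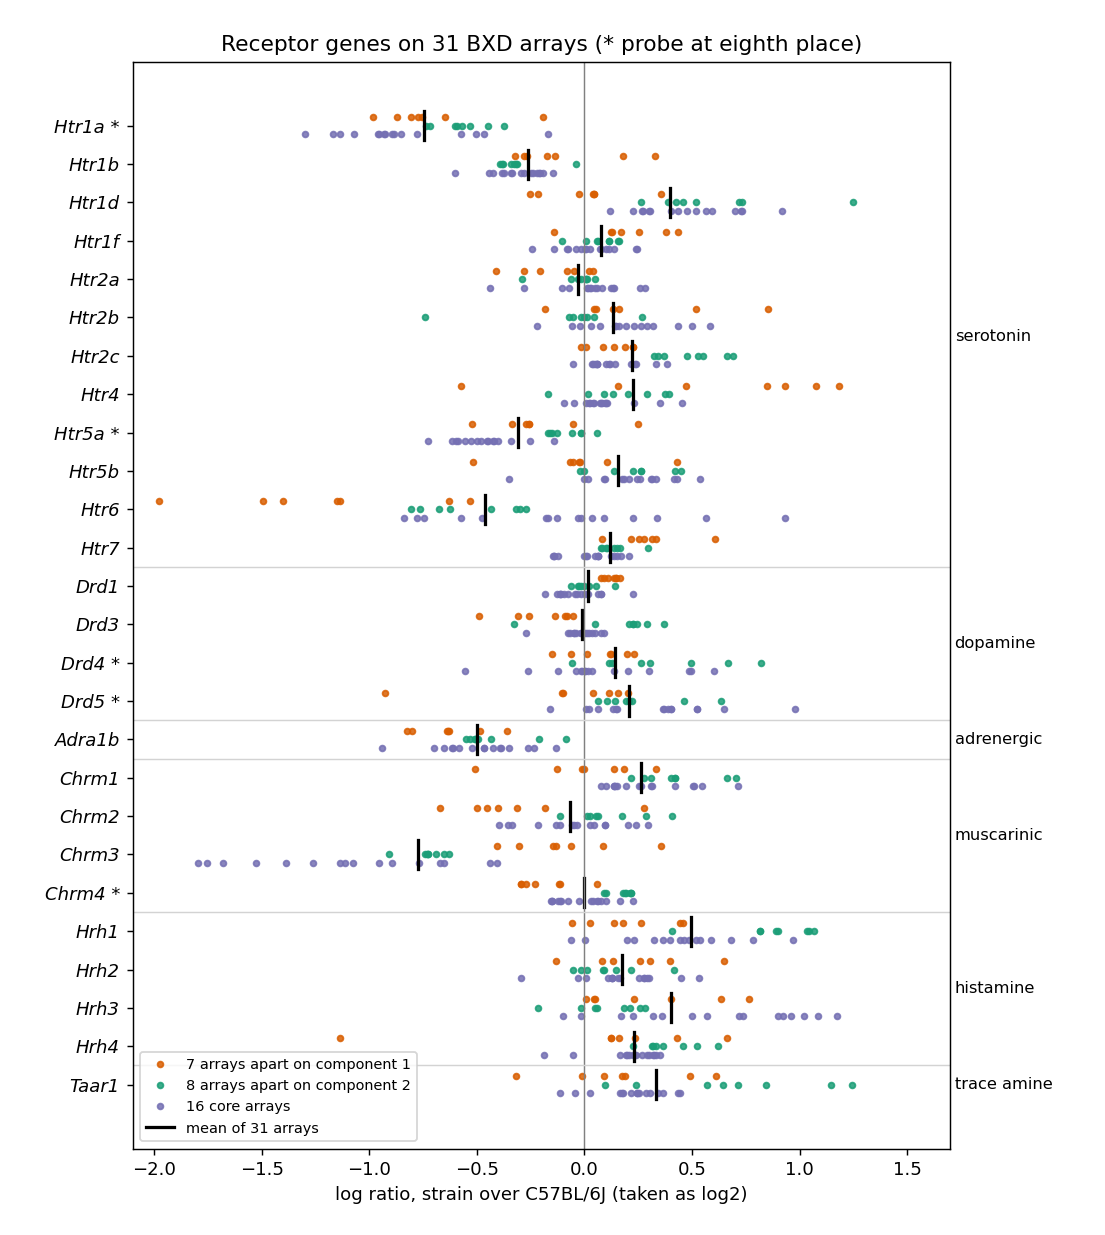
Log ratio (x axis, strain over C57BL/6J, taken as log2) of each of 26 receptor genes (y axis, by transmitter) on 31 arrays; each point is 1 strain, coloured by array group, and the black bar is the mean of 31 arrays. Htr1a (on an eighth-place probe, not place-centred here) and Adra1b lie below 0 on every array, whereas Htr6 and Chrm3 spread over more than 2 units.

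Promoters are shown for Hrh3, whose mean was the second highest, and for Htr1a and Chrm3, the lowest in mean, each of which has 1 listed start. The sequences are RefSeq's for GRCm38.p6, from 250 bases before to 50 after the start of the gene, written 5′ to 3′ on the strand of the gene. Capitals mark the GC box GGGCGG or its reverse complement, which may overlap, and the motifs TATAAA, TGACGTCA (a cyclic AMP response element) and CACGTG were searched on both strands without a match in these 3. The Hrh3 window lies at chr2:180104358-180104657 on the minus strand, that of Htr1a at chr13:105443443-105443742 on the plus strand and that of Chrm3 at chr13:10360754-10361053 on the minus strand.
Hrh3: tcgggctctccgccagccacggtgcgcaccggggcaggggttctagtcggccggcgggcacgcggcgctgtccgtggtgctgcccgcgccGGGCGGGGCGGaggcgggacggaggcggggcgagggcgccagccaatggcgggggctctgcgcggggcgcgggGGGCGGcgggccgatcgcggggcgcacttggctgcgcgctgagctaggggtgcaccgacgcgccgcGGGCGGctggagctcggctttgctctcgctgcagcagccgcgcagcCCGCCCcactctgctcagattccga
Htr1a: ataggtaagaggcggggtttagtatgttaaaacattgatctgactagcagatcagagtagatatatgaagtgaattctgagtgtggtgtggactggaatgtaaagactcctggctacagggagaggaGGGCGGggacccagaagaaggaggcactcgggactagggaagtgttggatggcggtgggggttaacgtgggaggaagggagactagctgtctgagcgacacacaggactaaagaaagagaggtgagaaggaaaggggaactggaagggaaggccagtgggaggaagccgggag
Chrm3: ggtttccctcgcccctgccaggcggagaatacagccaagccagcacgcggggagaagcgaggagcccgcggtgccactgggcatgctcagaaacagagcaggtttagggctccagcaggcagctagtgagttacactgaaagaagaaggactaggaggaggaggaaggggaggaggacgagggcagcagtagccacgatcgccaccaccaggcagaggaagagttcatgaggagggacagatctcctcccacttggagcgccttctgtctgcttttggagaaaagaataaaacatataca
The Hrh3 window is 79.0% G or C and holds the GC box 5 times on both strands, with overlapping copies counted apart; the Htr1a window is 52.3% G or C with 1 copy, and the Chrm3 window 57.3% with none. RefSeq's table held 29 such windows for 21 of the 26 genes. Among them 18 contained a GC box, against 35.7% of all 32851 windows of this length. The median share of G or C was 58.0% in the 29 windows, against 52.7% in all. Some windows of 1 gene overlap, such as those of Hrh2, and each was counted. The difference in GC boxes was not tested. None of the 29 contained TATAAA (13.6% of all windows), TGACGTCA (1.79%) or CACGTG (7.15%) in these letters. A match in these letters is a description of the window and not a binding site.

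Among the serotonin receptors, 7 of 12 genes passed above 0 and 4 below, and Htr2a did not pass. The genes with the smallest p were all coupled to Gi. Of these, Htr1a, Htr1b and Htr5a had a mean log ratio below 0 and Htr1d above 0. Htr1a encodes the autoreceptor on the cell bodies of raphe neurons, which is also found on hippocampal and cortical neurons. On its eighth-place probe it had lowest, median and highest values of −1.30 (BXD16), −0.77 and −0.17 (BXD12). Every strain therefore lay below 0, though the highest came close to it. The mean was −0.75 ± 0.27 (SD, n = 31; limma adjusted p = 2.34e-15), and −0.34 when place-centred (limma adjusted p = 3.80e-07). Htr1b, the autoreceptor on axon terminals, ran from −0.60 in BXD5 through a median of −0.30 to 0.33 in BXD23, with 29 strains below 0. BXD23 and BXD36, both apart on the first component, were the 2 strains above 0. Its mean was −0.26 ± 0.18 (limma adjusted p = 1.57e-08, n = 31). Htr5a, a Gi-coupled receptor found largely in the nervous system, had −0.73 (BXD11), −0.33 and 0.25 (BXD23), with 29 strains below 0 and a mean of −0.31 ± 0.23 (limma adjusted p = 6.38e-08). Its probe is at the eighth place, and place-centred the sign turned, with a mean of 0.10 (limma adjusted p = 0.0152).

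Htr1d, another terminal autoreceptor and a target of triptans, behaved in the opposite way to Htr1b, its closest relative among these genes. It ran from −0.25 in BXD28 through 0.40 to 1.25 in BXD27, with 28 strains above 0 and a mean of 0.40 ± 0.32 (limma adjusted p = 1.81e-07, n = 31). The 3 strains below 0 were all apart on the first component, where the mean was −0.0017, against 0.47 in the core. Htr1f, also coupled to Gi, varied little, between −0.24 and 0.44 with a median of 0.08, and its mean of 0.07 ± 0.15 passed narrowly (limma adjusted p = 0.0209). With the 7 arrays that the first component set apart left out, it no longer passed, at 0.04 (limma adjusted p = 0.166). Htr5b, functional in rodents, had values from −0.52 to 0.54 and a mean of 0.16 ± 0.23 (limma adjusted p = 0.00130); place-centred, it did not pass at 0.07.

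Of the Gq-coupled serotonin receptor genes, 2 of 3 passed, both above 0. Htr2a, the cortical receptor on which classical psychedelics act, ranged from −0.44 to 0.28 around a median of 0.01, with 18 of 31 strains above 0 (mean −0.03 ± 0.17, limma adjusted p = 0.373). Place-centred, it passed below 0 at −0.12 (limma adjusted p = 7.02e-04). Htr2b, known best from heart valve and gut, ranged from −0.74 to 0.85, with a mean of 0.13 ± 0.28 (limma adjusted p = 0.0185) that did not pass without the 7 arrays (0.10) or when place-centred (0.04). Htr2c, an X-linked receptor abundant in choroid plexus, had −0.05 (BXD29), 0.19 and 0.69 (BXD27) as the mean of its probes, 29 strains above 0 and a mean of 0.22 ± 0.20 (limma adjusted p = 2.15e-06). That average joins probes of opposite sign, described with the other genes that have several probes.

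Of the Gs-coupled serotonin receptors, Htr6 varied most among the 26 receptor genes. Htr6 is found mainly in striatum, cortex and hippocampus. Its values were −1.98 (BXD23), −0.48 and 0.93 (BXD32), with 25 strains below 0 and an SD of 0.61, at percentile 96.9 of the SDs of named genes. The mean of −0.46 passed (limma adjusted p = 2.00e-04), but over the 16 core arrays it was −0.11 and did not (limma adjusted p = 0.390). Htr4, which promotes acetylcholine release and gut movement, reached from −0.57 in BXD6 through 0.10 to 1.18 in BXD23, and both ends came from arrays apart on the first component. Its mean was 0.23 ± 0.37 (limma adjusted p = 0.00210), and its SD over the core arrays 0.14. Htr7, known in thalamus and hypothalamus, was among the steadiest, between −0.15 and 0.60 around 0.10, with 26 strains above 0 and a mean of 0.12 ± 0.16 (limma adjusted p = 7.67e-04). Over the core arrays its mean was 0.03 and did not pass (limma adjusted p = 0.403), nor did it when place-centred, at 0.04 (limma adjusted p = 0.207).

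The dopamine receptor genes had means from −0.01 to 0.21 on the deposited scale, with 2 of 4 passing, both above 0. Drd1, the Gs-coupled receptor of striatal neurons of the direct pathway, had the smallest spread of the 26 genes. As the mean of 3 probes it had −0.18 (BXD16), 0.0028 and 0.22 (BXD29), with 16 strains above 0 and 15 below. The mean was 0.02 ± 0.10 (limma adjusted p = 0.514, n = 31). Drd3, a Gi-coupled receptor of the ventral striatum, was centred on 0 too, with −0.49 (BXD8), −0.01 and 0.37 (BXD27), 14 strains above 0 and a mean of −0.01 ± 0.19 (limma adjusted p = 0.733). Drd4, a Gi-coupled receptor known from prefrontal cortex and retina, had −0.56 (BXD16), 0.12 and 0.82 (BXD27) with 22 strains above 0. Its mean was 0.14 ± 0.29 (limma adjusted p = 0.0111), and 0.08 over the core arrays, where it did not pass (limma adjusted p = 0.308). Drd5, a relative of Drd1 with high affinity for dopamine, had −0.93 (BXD38), 0.15 and 0.98 (BXD32), 27 strains above 0 and a mean of 0.21 ± 0.33 (limma adjusted p = 0.00174). Both Drd4 and Drd5 have eighth-place probes, and place-centred their means were 0.55 and 0.62 (limma adjusted p = 3.50e-11 and 2.81e-10). The same centring brought Drd3 to −0.09 (limma adjusted p = 0.0216).

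Adra1b, a Gq-coupled receptor for noradrenaline and the only adrenergic gene among those chosen, had a log ratio below 0 in every strain. The values were −0.94 (BXD11), −0.51 and −0.08 (BXD22), with a mean of −0.50 ± 0.20 (SD, n = 31; limma adjusted p = 5.33e-14). Its SD stood at percentile 20.1 of named genes over all arrays and at percentile 50.1 over the core arrays. The mean was −0.62 in arrays apart on component 1, −0.41 in those apart on component 2 and −0.48 in the core.

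Of the 4 muscarinic receptor genes, 1 passed above 0, 1 passed below 0 and 2 did not pass. Chrm1, the Gq-coupled receptor of cortical and hippocampal pyramidal neurons, had −0.51 (BXD38), 0.26 and 0.71 (BXD21) as the mean of 2 probes, with 27 strains above 0 and a mean of 0.26 ± 0.25 (limma adjusted p = 3.68e-06). Chrm3, also coupled to Gq and known for its part in gland secretion and smooth muscle, had −1.80 (BXD32), −0.73 and 0.36 (BXD20). The strains thus ranged from a ratio well under the reference to one above it, with 29 below 0. Its mean of −0.77 (limma adjusted p = 3.70e-09) was −1.09 over the core arrays, and its SD of 0.53 stood at percentile 94.1 of named genes. Chrm2, the Gi-coupled autoreceptor of cholinergic terminals, had −0.67 (BXD28), −0.03 and 0.41 (BXD40), 15 strains above 0 and a mean of −0.07 ± 0.27 (limma adjusted p = 0.209). Chrm4, a Gi-coupled receptor abundant in striatum, lay within a narrow band of −0.30 (BXD36), 0.04 and 0.22 (BXD13), with 17 strains above 0 and a mean of −0.00075 ± 0.16 (limma adjusted p = 0.984). On its eighth-place probe the place-centred mean was 0.41 (limma adjusted p = 1.74e-10), and that of Chrm2 was −0.12 (limma adjusted p = 0.0272).

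Histamine was the only transmitter with more than 1 receptor gene measured for which every gene passed on the same side. Hrh1, the Gq-coupled receptor at which sedating antihistamines act, had −0.06 (BXD29), 0.46 and 1.07 (BXD27) with 29 strains above 0 and a mean of 0.49 ± 0.34 (limma adjusted p = 4.33e-09, n = 31). Hrh2, the Gs-coupled receptor known from gastric acid secretion and also present in brain, had −0.29 (BXD32), 0.15 and 0.65 (BXD20) with 26 strains above 0 and a mean of 0.18 ± 0.20 (limma adjusted p = 5.87e-05). Hrh3, the Gi-coupled autoreceptor of histamine neurons, had −0.22 (BXD39), 0.28 and 1.18 (BXD1), 27 strains above 0 and a mean of 0.40 ± 0.39 (limma adjusted p = 2.96e-06). Within the core arrays the SD of Hrh3 was 0.40, at percentile 91.3 of named genes, with Htr6 at percentile 96.1 and Chrm3 at 94.1. Hrh4, known mainly from immune cells, had −1.14 (BXD28), 0.27 and 0.66 (BXD8) and 28 strains above 0, and its mean was 0.23 ± 0.30 (limma adjusted p = 2.55e-04). The next lowest value after that of BXD28 was −0.19. Averaged over the 4 genes, the histamine receptors were above 0 in 30 of 31 strains, with −0.22 in BXD28, a median of 0.35 and 0.58 in BXD1. The corresponding averages for the 12 serotonin genes ran from −0.22 in BXD6 to 0.09 in BXD36, those for the 4 dopamine genes from −0.23 in BXD38 to 0.45 in BXD27 and those for the 4 muscarinic genes from −0.48 in BXD32 to 0.17 in BXD40.

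Taar1, a receptor for trace amines such as tyramine and phenylethylamine that acts on dopamine and serotonin neurons, had −0.32 (BXD36), 0.25 and 1.24 (BXD27). With 27 strains above 0 its mean was 0.33 ± 0.34 (limma adjusted p = 7.82e-06, n = 31). The 5 highest values came from the arrays apart on the second component, which averaged 0.69, against 0.22 in the core. BXD27 had the highest value of 6 of the 26 receptor genes, more than any other strain.

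**Figure D2:**
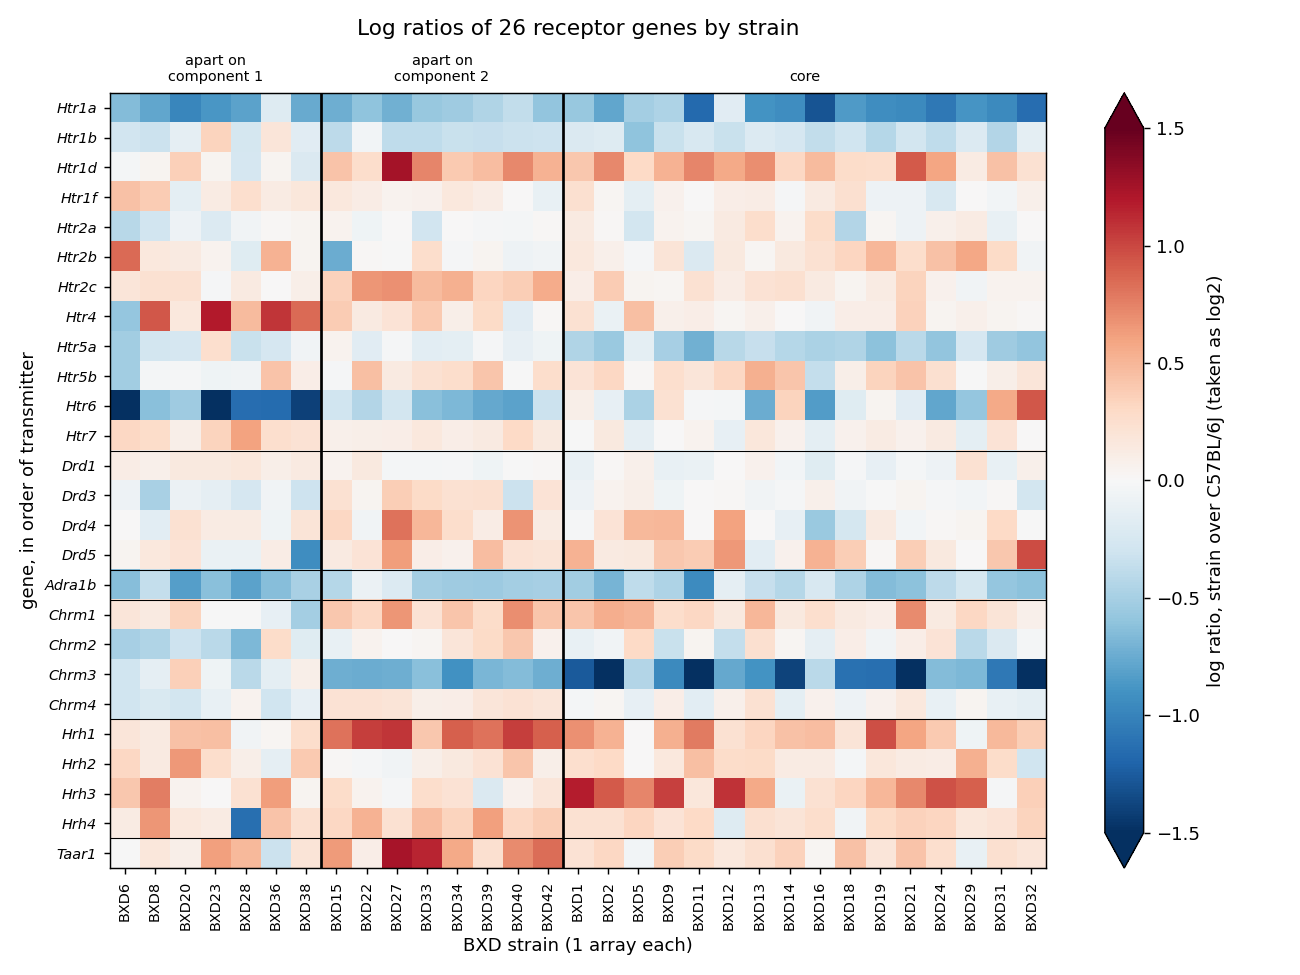
Log ratios (colour, strain over C57BL/6J, taken as log2, saturated beyond 1.5 in size) of 26 receptor genes (rows, by transmitter) in 31 BXD strains (columns, by array group). The mean of Chrm3 in the 7 arrays that component 1 set apart is −0.09, against −1.09 in the core, and that of Htr6 is −1.19, against −0.11, with overlap between single strains.

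Grouped by coupling instead of transmitter, the receptors gave a similar mixture. Of 12 genes coupled to Gi, 6 passed above 0 and 3 below, with a median of means of 0.04. Of 7 coupled to Gq, 4 passed above 0 and 2 below, with a median of 0.13, and of 6 coupled to Gs, 4 above and 1 below, with a median of 0.15. Taar1 was left out of this grouping.

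Drd1, Htr2c and Chrm1 were measured by several probes each, which allowed the same gene to be read more than once on every array. The probes of Htr2c had opposite signs. Probe 4749 ran from −0.58 to 0.15 with 28 strains below 0 and a mean of −0.21 ± 0.16 (SD, n = 31). Probe 21738 ran from 0.11 to 1.48, above 0 in all 31 strains, with a mean of 0.65 ± 0.39, and it exceeded the first probe on every array. On this second probe, all 8 arrays apart on the second component, between 0.86 and 1.48, lay above all 16 core arrays, between 0.11 and 0.78. This was seen in the values and not tested. For Chrm1, probe 11193 averaged 0.02 ± 0.20 with 13 strains above 0, and probe 21257 averaged 0.51 ± 0.50 with 27 above 0. The call for Chrm1 thus came from the second probe (limma adjusted p = 2.64e-06, against 0.685 for the first). For Drd1, probe 12711 had a mean of −0.21 ± 0.23, probe 15758 of 0.07 ± 0.24 and probe 17863 of 0.19 ± 0.26, and the first and the last passed on opposite sides of 0 (limma adjusted p = 3.74e-05 and 4.72e-04). The low spread of Drd1 therefore belongs to the average of 3 probes, whose own SDs were 0.23, 0.24 and 0.26.

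Agreement over strains was computed within each array group, since a value over all arrays would mix the groups. Of 15 correlations (5 pairs of probes in 3 array groups), 7 were positive, and none passed after adjustment (exact or permutation tests, two-sided, lowest adjusted p = 0.241 for Pearson's r and 0.357 for Spearman's rho). Unadjusted, 2 had p under 0.05 for r and 2 for rho, and each of these was negative. By r, the highest was between the probes of Htr2c in the 7 arrays apart on the first component, r = 0.51 and rho = 0.50 (exact permutation p = 0.236 and 0.267, n = 7). Without the 2 arrays farthest from the median of probe 4749, r became −0.08. Below too, the 2 arrays left out were those farthest from the median of the first probe named in a pair, whatever the second probe showed. By r, the lowest was between Drd1 probes 15758 and 17863 in the same 7 arrays, r = −0.77 and rho = −0.79 (exact permutation p = 0.0375 and 0.0480; adjusted p = 0.267 and 0.360), and r was −0.44 without 2 arrays. Drd1 probes 12711 and 17863 had the lowest rho, also in these 7 arrays, with r = −0.70 and rho = −0.86 (exact permutation p = 0.0712 and 0.0238; adjusted p = 0.267 and 0.357), and r was −0.96 without 2 arrays. In the core, the same pair gave r = −0.66 and rho = −0.27 (permutation p = 0.0161 and 0.310, n = 16; adjusted p = 0.241 and 0.581), and r was 0.11 without 2 arrays. Values of a receptor gene with 1 probe have no such second reading.

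**Figure D3:**
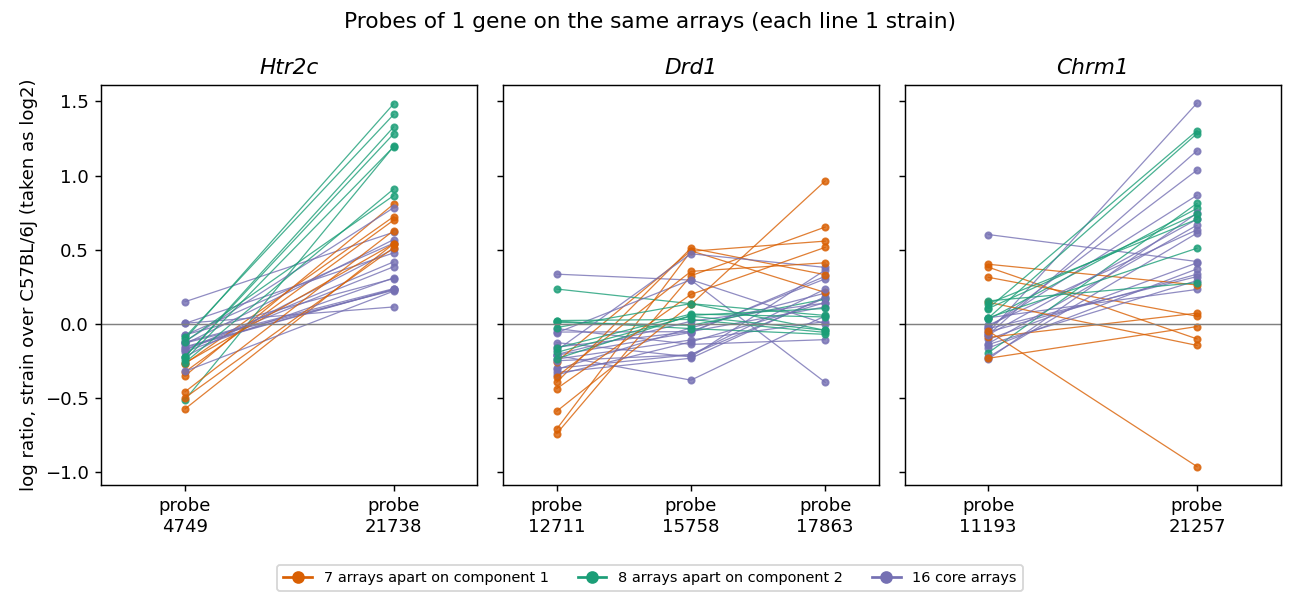
Log ratios (y axis, strain over C57BL/6J, taken as log2) of each probe (x axis) of Htr2c, Drd1 and Chrm1; each line joins the values of 1 strain and is coloured by array group. The second Htr2c probe lies above the first in all 31 strains, and Drd1 probe 17863 lies above probe 12711 in 25 of 31.

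Part of the spread followed the array groups. For Htr6 the 7 arrays apart on the first component averaged −1.19 ± 0.50 (SD), the 8 apart on the second −0.53 ± 0.22 and the 16 core arrays −0.11 ± 0.49. Chrm3 had the reverse order, with −0.09 ± 0.25, −0.73 ± 0.08 and −1.09 ± 0.45. These were the largest distances from the core among the 26 genes, −1.08 for Htr6 and 1.01 for Chrm3. Arrays apart on the second component were farthest from the core for Hrh3 (−0.50), Taar1 (0.47) and Hrh1 (0.44). Each group apart overlapped the core for all 26 genes. Among named genes, 8.52% had no overlap between the first of these groups and the core, and 4.16% none between the second and the core. For Chrm3 the first group only just met the core (lowest −0.408, against a highest core value of −0.407). Overlap of the groups apart with each other was not counted, and Chrm3 had none (−0.41 to 0.36 against −0.91 to −0.63). No test was made between these groups, because they were defined from the same arrays. The median SD of the 26 genes was 0.26 over 31 arrays, against 0.27 for all named genes, and 0.19 over the core, against 0.20.

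**Figure D4:**
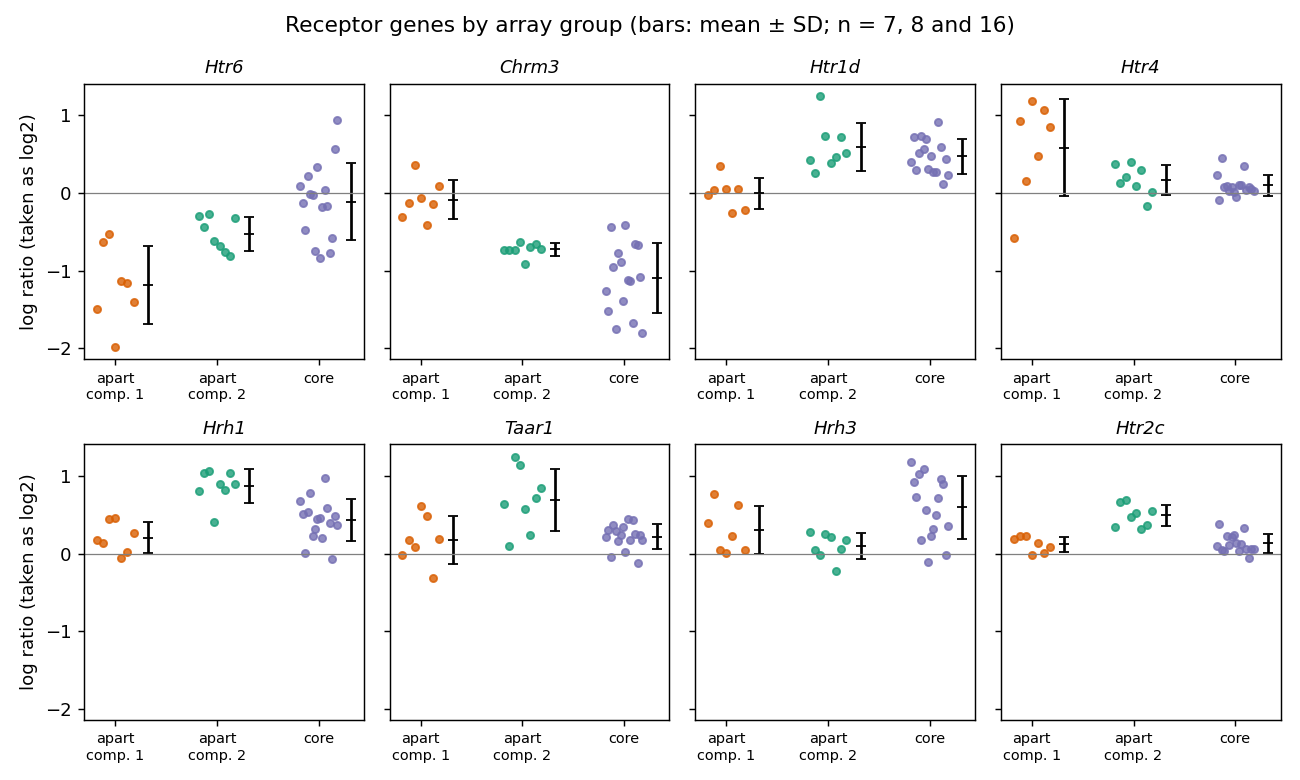
Log ratios (y axis, strain over C57BL/6J, taken as log2) of 8 receptor genes in the arrays apart on the first component (n = 7), apart on the second (n = 8) and in the core (n = 16); points are strains and bars mean ± SD. The means of Htr6 and Chrm3 shift in opposite directions between the first group and the core.

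Genes that make, carry and break down these transmitters, and those that act downstream of the receptors, were described in the same way, by counts beside 42.1% of features above and 33.9% below 0. Of 17 measured genes of synthesis, transport and breakdown, 8 passed above 0 and 3 below. The smallest p belonged to Slc5a7, the choline transporter of cholinergic terminals, at −0.96 ± 0.29 (SD, n = 31), Bche, butyrylcholinesterase, at −0.79 ± 0.28 and the cation transporter gene Slc22a2 at −0.62 ± 0.29, each below 0 on all 31 arrays. The last 2 have eighth-place probes. The serotonin transporter gene Slc6a4 had 0.35 ± 0.24 and Th, which makes the precursor of dopamine and noradrenaline, 0.26 ± 0.17, each above 0 in 30 strains. Slc18a3, the vesicular acetylcholine transporter, had 0.26 ± 0.16, opposite in sign to Slc5a7. All 26 measured genes of G proteins and effectors passed, 19 above 0 and 7 below. Gnai3, an inhibitory G protein subunit, was at −0.66 ± 0.30, Plcb1, a phospholipase C driven by Gq, at 0.49 ± 0.24, the adenylyl cyclase gene Adcy8 at 0.59 ± 0.29 and the protein kinase A subunit gene Prkar2a at −0.33 ± 0.18. In the list of receptor kinases, arrestins and RGS proteins (which shorten G protein signals), 9 of 19 measured genes passed above 0 and 5 below. Rgs20 was above 0 in every strain at 0.77 ± 0.26, Rgs10 below 0 in every strain at −0.33 ± 0.14, Rgs19 was at −0.85 ± 0.60 on an eighth-place probe, and the receptor kinase gene Grk5 had −0.49 ± 0.35.

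Markers of regions and cells rich in these receptors, or of the neurons that release the transmitters, were read beside them. Chat, Rgs9, Slc18a3, Slc5a7, Slc6a2, Slc6a3, Slc6a4 and Th belong to a marker list as well as to a list above. Marker averages were not place-centred. The average of 6 striatal markers ran from −0.27 to 0.15 in the arrays apart on the first component. It ran from −0.12 to 0.08 in those apart on the second and from −0.33 to 0.37 in the core. Of these markers 4 passed above 0 and 2 below. The 2 below have eighth-place probes, and 1 of them, Penk, was at −1.27 ± 0.43. For 6 choroid plexus markers, 4 above and 2 below 0, the ranges were −0.09 to 0.22, −0.05 to 0.15 and −0.04 to 0.18, in the same order of groups. Of 4 cholinergic markers, 2 passed above 0 and 1 below. Their average ran from −0.43 to −0.21 on the 7 arrays that component 1 set apart. It ran from −0.18 to 0.07 on those apart on the second and from −0.41 to 0.08 in the core. Pituitary, which can stay attached to a dissected brain, showed 3 of 8 markers above 0 and 1 below, the latter on an eighth-place probe. Its averages were −0.32 to 1.08, −0.20 to 0.02 and −0.04 to 0.52 in the same order of groups. Of 3 serotonin neuron markers 1 passed above 0 and 1 below, of 4 dopamine neuron markers 3 above, of 2 noradrenergic markers none (0 at an unadjusted p under 0.05), and of 4 blood markers 3 below 0. The part of these markers in the receptor values was not tested.

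The later strains were compared with the earlier ones to ask whether the sets differed in receptor expression. None of the 26 genes passed limma's test of the difference (adjusted p from 0.0914 upward over 21262 features), and 3 had an unadjusted p under 0.05, against 0.480% of features called and 20.2% with an unadjusted p under 0.05. Htr1a came nearest, with −0.76, −0.53 and −0.19 as lowest, median and highest in later strains, against −1.30, −0.86 and −0.17 in earlier ones. The difference, later minus earlier, was 0.33 ± 0.10 (SE; limma adjusted p = 0.0914, n = 7 and 24), and the sets overlapped. Htr5a had −0.26, −0.13 and −0.02 in later strains, against −0.73, −0.42 and 0.25 in earlier ones, a difference of 0.25 ± 0.09 (limma adjusted p = 0.136). Every later strain lay within the range of the earlier ones. Chrm2 had −0.18, 0.18 and 0.41 in later strains, against −0.67, −0.08 and 0.30 in earlier ones, a difference of 0.28 ± 0.10 (limma adjusted p = 0.137), and the highest value belonged to a later strain while the ranges overlapped. Hrh3 averaged 0.17 ± 0.26 in later strains and 0.47 ± 0.40 in earlier ones (SD; limma adjusted p = 0.270), and Htr6 averaged −0.82 ± 0.36 in later strains and −0.36 ± 0.64 in earlier ones (limma adjusted p = 0.274).

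Later strains were spread unequally over the array groups, with 5 of 7 apart on the second component, 2 apart on the first and none in the core. With array group as a block, the difference became 0.25 ± 0.13 (SE) for Htr1a, −0.0026 ± 0.09 for Htr5a, 0.34 ± 0.11 for Chrm2, 0.02 ± 0.18 for Hrh3 and −0.22 ± 0.23 for Htr6, and no gene passed (limma adjusted p from 0.458 upward for the 26 genes; 0 of all features called). Unadjusted, 2 of the 26 had p under 0.05, Chrm2 and Chrm1, against 7.29% of features. Chrm2 had the largest difference of the 26 in this fit (unadjusted limma p = 0.00351). Within the 8 arrays apart on the second component (5 later and 3 earlier strains) Chrm2 differed by 0.21 and within the 7 apart on the first (2 later and 5 earlier) by 0.51, and Htr1a by 0.18 and 0.34.

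**Figure D5:**
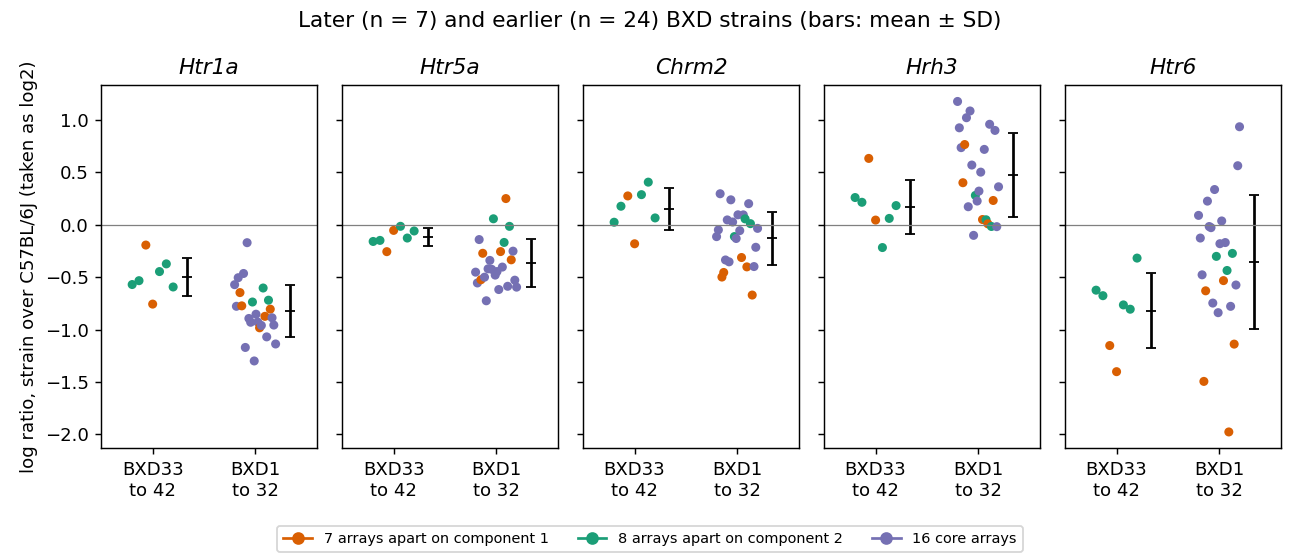
Log ratios (y axis, strain over C57BL/6J, taken as log2) of the 5 receptor genes with the smallest p for the difference between later (BXD33 to BXD42, n = 7) and earlier strains (BXD1 to BXD32, n = 24); points are strains coloured by array group and bars mean ± SD. The sets overlap for all 5 genes.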

How the data were processed

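The authors' deposited table holds 1 log ratio, taken as log2, for each of 23040 spots on 31 arrays. All columns share the same sorted values (largest difference 0), so they had been quantile normalised. The submitters' processing notes name limma and R 2.0.0; no source used here gives the background correction or any filter. Per the labels' protocols, each channel took 20 ug of RNA, and 2 ug of a spike-in mix went with the reference. The lowest correlation between arrays was 0.28. Signal over background was not used, and the number of arrays limits the precision.

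Probes were named from the platform annotation and averaged per gene (15096 genes, 6166 other spots). All receptor probes matched RefSeq by Entrez identifier. limma 3.58.1 in R 4.3.3 (lmFit, eBayes) tested the mean against 0, which leaves out the spread of the reference and any dye effect, and later against earlier strains, on all 21262 features, with Benjamini-Hochberg adjustment at 0.05. Both procedures were run on simulated independent normal values with known shifts. That simulation held no array groups and no place effect, so it cannot show how the tests behave under either. Array groups were cut at scores of 0.2. Correlations used exact permutations (n under 10) or 100000 resamples. Every member gene was named. Those given in full were the 4 members of each transmitter with the smallest adjusted p, those with several probes, the 5 largest and 3 smallest SDs and the 5 smallest p between strain sets. Up to 4 genes of each companion list were named; Slc6a4 and Th were added after their values were seen. Alternatives covered arrays, probe place, probes, array centring, robust variances and a 1.2-fold minimum. Members, lists and tests were chosen with earlier results of these data known.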

Additional observations from a re-analysis of the deposited data

Results flagged for a closer look

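Among the 7 later strains, 4 of the 26 receptor genes had 1 strain far from the others, by Dixon's gap test. For values from 1 population, chance flags about 1 in 20 groups. The later strains mix arrays of different array groups, and the share of all features flagged was not computed. The count is therefore not read as an excess. Drd5 was −0.93 in BXD38, against 0.06 to 0.46 in the other 6. Htr1b was 0.18 in BXD36, against −0.38 to −0.17. Htr2a was −0.29 in BXD33, against −0.03 to 0.04. Adra1b was −0.64 in BXD36, against −0.55 to −0.48. BXD36 and BXD38 are the 2 later strains whose arrays stood apart on the first component, and whether array or strain sets these values cannot be told apart. No receptor gene passed the limma test between the strain sets.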

How the results depend on the processing

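Robust variances changed no receptor gene's call, and no single strain left out moved a receptor gene across the threshold for its mean or for the strain sets. With arrays centred on their median, 14 receptor genes passed above 0, and the mean of Htr1f no longer passed (0.061, limma adjusted p = 0.0600). Against a change of 1.2-fold, 5938 features passed. Receptor genes then counted 2 above and 3 below 0 (serotonin 1 and 1, dopamine 0 above, muscarinic 0 above, histamine 1, trace amine 0). Of the companion lists, synthesis, transport and breakdown had 0 above, G proteins and effectors 4 above and 2 below, and kinases, arrestins and RGS 1 above. Counts below 0 are not given for the first and last of these lists. Those lists hold means well below 0, such as Slc5a7 (−0.96), Bche (−0.79) and Rgs19 (−0.85). The larger size demanded sets these counts. Without eighth-place probes, 2 serotonin genes below 0, 0 dopamine genes above 0 and 1 synthesis gene below 0 were left, since fewer genes were tested. Over the 16 core arrays, 1 dopamine gene passed above 0. Place-centred, 1 dopamine gene passed below 0, and 2 muscarinic genes passed above and 2 below; Htr5a turned to 0.10 and Chrm4 to 0.41. Genes near 0 turned sign without the 7 arrays apart on component 1 (Drd1 −0.015, Drd3 0.041, Chrm2 0.0089, Chrm4 0.052) or over the core (Drd1 −0.028, Htr2a 0.019). Drd1 was −0.21 on probe 12711 and Htr2c −0.21 on probe 4749. Leaving out 1 strain, Drd3 ran from −0.026 to 0.0022 (above 0 only without BXD8) and Chrm4 from −0.0082 to 0.0091, with 14 strains turning its sign.

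The count of all features that differed between strain sets, 102, was 0 with array group as a block, 0 within the 8 arrays apart on component 2 and 0 within the 7 apart on component 1. It ran from 0 to 596 when 1 strain was left out, and moved by over 1.5 times for 29 of 31 strains, all but BXD5 and BXD38. For the receptor genes, the Htr5a difference turned to −0.0026 with the block and −0.060 within the 8 arrays, and that of Hrh3 to 0.018 with the block and 0.047 within the 7. The fits within groups compared few arrays (5 later and 3 earlier strains, or 2 later and 5 earlier), and the core holds no later strain. Fewer calls within a group can therefore come from fewer arrays, and the cause was not tested. No paired analysis was possible because each strain has its own number and 1 array, so the strain sets share none.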
